A study of Homo sapiens with 12 samples.

Results

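The genes described here are 47 genes of DNA double-strand break and interstrand crosslink repair, from the kinases that signal a break to the enzymes that rejoin it. They were taken by symbol from the 58307 rows of the table that name a gene, and each of the 47 symbols matched 1 row. All 47 passed the filter on low counts in every fit, so each was tested. The study asked how rapamycin, an inhibitor of the mTOR kinase that induces autophagy, changes the response of melanoma cells to etoposide. A375 and SK-MEL-28, established human malignant melanoma lines grown in the same medium, each received etoposide alone or etoposide + rapamycin, with 3 libraries of polyA RNA in each of the 4 groups. All 12 libraries therefore come from cells given etoposide, and doses and times are not in the labels. The comparisons show what rapamycin added to etoposide and not what etoposide did, since RNA-seq of cells without etoposide, or with rapamycin alone, was not analysed here.

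Etoposide traps topoisomerase II on DNA that it has cut, which leaves double-strand breaks. ATM and ATR signal such damage, and the phosphorylated histone H2AX marks the chromatin around it. A break is then joined end to end by Ku, DNA-PK and DNA ligase IV at any time of the cell cycle, or copied from the sister chromatid by homologous recombination, which needs BRCA1, BRCA2 and resected ends and works in S and G2 phase. The Fanconi anaemia proteins unhook crosslinked strands and hand the break they make to recombination, and many genes of recombination and of the Fanconi pathway are transcribed mostly in S phase.

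Library totals ranged from 28189501 to 32499337 counts. Levels are given as CPM, the count as a share of the library on a common scale, after TMM normalization (the trimmed mean of M values). A log2FC is a log2 of the fold change, positive where the gene was higher with rapamycin, and is given with its standard error (SE). Unless a second tool, DESeq2, is named, an adjusted p comes from the quasi-likelihood test of edgeR. It was adjusted over all genes tested by the Benjamini-Hochberg method. The transcription factor gene SOX10 (166 to 579 CPM in a library) and S100B (56.8 to 106 CPM), both of the melanocyte lineage, were expressed in all libraries. The 5 pigmentation genes checked (TYR, MLANA, PMEL, DCT and TYRP1) were at 0 to 2.99 CPM in every library of either line, so the pigment markers of the lineage were near absent from both. Levels in the 2 lines were also close. Under etoposide the absolute log2 difference between them was 0.25 at the median of 20101 genes, and 78.2% of genes lay within a fold change of 1.5, beside an absolute log2FC of 0.22 at the median and 87.4% of genes for rapamycin in A375. The names A375 and SK-MEL-28 therefore rest on the labels alone, the identity of the cells was not tested, and each value of a line or between the lines is that of the libraries labelled so. Leukocyte markers summed to at most 0.820 CPM in a library, and the keratinocyte and endothelial markers to at most 10.4 and 6.52 CPM.

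With rapamycin, 19 of the 47 repair genes rose in A375 at an adjusted p under 0.05 and 1 fell, where 14.3% of all 18844 genes tested rose and 13.8% fell. The other 27 did not pass. In SK-MEL-28, 8 of the 47 rose, where 8.83% of 18897 genes tested rose and 10.1% fell. None of the 47 fell in SK-MEL-28 by edgeR, with 1 lower at an unadjusted p under 0.05 and 0 lower by DESeq2. The median log2FC of the 47 was 0.21 in A375 cells and 0.10 in SK-MEL-28, beside medians over all genes of -0.01 and 0.01. The 3 rapamycin libraries lay above the 3 etoposide libraries for 21 of the 47 genes in A375, where 20.7% of all genes tested did so, and for 15 of the 47 in SK-MEL-28, where 17.7% did. With a fold change over 1.5 as well, the thresholds of the study's methods, 7 genes rose in A375 (FANCA, FANCG, FANCB, FANCE, RAD54L, POLQ and EXO1), against 3.09% of all genes. In SK-MEL-28 only BARD1 passed both thresholds, against 1.85% of all genes.

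**Figure D1:**
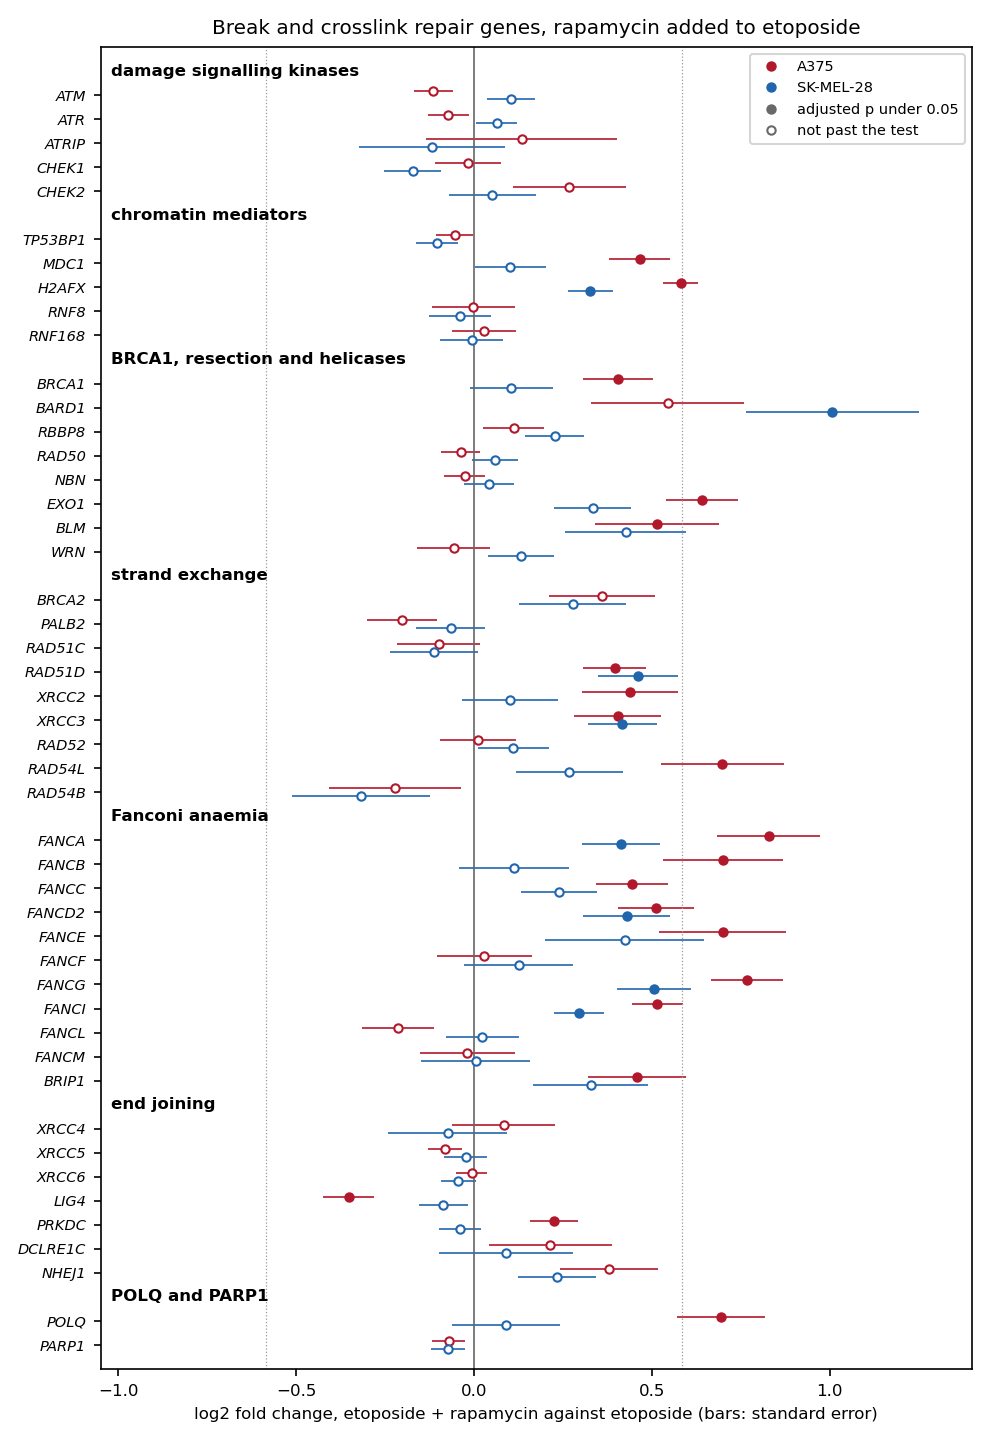
Log2FC of the 47 repair genes with rapamycin (x axis) in A375 (red) and SK-MEL-28 (blue), grouped by role, with bars of 1 standard error. Filled points passed an adjusted p of 0.05 and dotted lines mark a fold change of 1.5. In A375, where 14.3% of all genes tested rose, 8 of the 11 Fanconi anaemia genes have filled points to the right of 0. None of the 5 damage signalling kinase genes does.

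The change was uneven across roles. The Fanconi anaemia genes held the largest share, with 8 of 11 higher in A375 and 4 of 11 higher in SK-MEL-28. Strand exchange genes followed with 4 of 9 and 2 of 9, BRCA1 with the resection and helicase genes with 3 of 8 and 1 of 8, and the chromatin mediators with 2 of 5 and 1 of 5. Of 7 end joining genes, 1 rose and 1 fell in A375, shares near the 14.3% and 13.8% of all genes. In SK-MEL-28 none of the 7 passed, where 0 had an unadjusted p under 0.05 and 0 passed by DESeq2. None of the 5 damage signalling genes passed in either line by edgeR or by DESeq2. Their counts at an unadjusted p under 0.05 were 0 in A375 cells and 1 in SK-MEL-28. No test compared one role with another, and in roles this small 1 gene changes the share by much.

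The Fanconi anaemia core complex is a ubiquitin ligase, and 5 of its genes rose in A375. FANCA, a subunit of the core (chromosome 16, 89726683 to 89816977, reverse strand, GRCh38), was at 15.7, 13.8 and 9.55 CPM in the etoposide libraries of A375 and at 22.2, 22.9 and 24.1 CPM with rapamycin. The groups did not overlap, and the log2FC was 0.83 (SE 0.14, adjusted p = 0.00110). In SK-MEL-28, FANCA went from 9.71, 11.0 and 11.5 CPM to 12.9, 14.6 and 15.5 CPM, a log2FC of 0.41 (SE 0.11, adjusted p = 0.0194). The call in SK-MEL-28 was lost without etoposide replicate 1 (adjusted p = 0.0766), etoposide + rapamycin replicate 2 (0.0601) or replicate 3 (0.0880). FANCG, which binds FANCA in the core complex (chromosome 9, 35073835 to 35080004, reverse strand), was at 11.6, 12.6 and 10.6 CPM with etoposide and 18.7, 19.1 and 21.3 CPM with rapamycin in A375. It had the smallest adjusted p of the Fanconi genes in both lines, with log2FCs of 0.77 (SE 0.10, adjusted p = 0.000151) in A375 and 0.51 (SE 0.10, adjusted p = 0.00467) in SK-MEL-28. Its SK-MEL-28 values were 10.1, 9.73 and 9.33 CPM against 14.4, 14.6 and 12.5 CPM, again without overlap.

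FANCB and FANCE, both of the core complex, passed the test in A375 but did not in SK-MEL-28, though the difference between the lines did not pass for either (adjusted p = 0.122 and 0.685). FANCB (chromosome X, 14690388 to 14873255, reverse strand) was at 2.95, 2.72 and 2.63 CPM with etoposide in A375 and at 4.41, 4.98 and 4.06 CPM with rapamycin, a log2FC of 0.70 (SE 0.17, adjusted p = 0.00822). In SK-MEL-28 its libraries overlapped, at 3.66, 4.30 and 4.13 CPM against 4.52, 3.93 and 4.65 CPM (log2FC 0.11, SE 0.15, adjusted p = 0.672). MOSPD2, whose start lies 352 bases from that of FANCB on the opposite strand, moved the other way in A375, with a log2FC of -0.54 (adjusted p = 0.00106). FANCE (chromosome 6, 35452338 to 35467104, forward strand) was at 4.16, 4.54 and 3.51 CPM with etoposide in A375 and at 5.15, 6.80 and 7.82 CPM with rapamycin, a log2FC of 0.70 (SE 0.18, adjusted p = 0.0111). That call was lost without etoposide + rapamycin replicate 3, the highest library (adjusted p = 0.0636). FANCE in SK-MEL-28 had a log2FC of 0.42 that did not pass (SE 0.22, adjusted p = 0.218). FANCC rose from 9.70, 8.97 and 8.64 CPM to 12.4, 12.4 and 12.2 CPM in A375 (log2FC 0.44, adjusted p = 0.00589).

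FANCD2 and FANCI form the clamp that the core complex modifies, and both rose in both lines. FANCI was the most abundant of the pair, at 36.1, 35.4 and 35.5 CPM with etoposide and 56.3, 49.8 and 46.2 CPM with rapamycin in A375 (log2FC 0.51, SE 0.072, adjusted p = 0.000237). In SK-MEL-28 it went from 32.2, 31.4 and 28.4 CPM to 36.7, 38.4 and 37.9 CPM, a log2FC of 0.29 (adjusted p = 0.0109). FANCD2 had log2FCs of 0.51 in A375 (adjusted p = 0.00345) and 0.43 in SK-MEL-28 (adjusted p = 0.0266). The SK-MEL-28 calls of the pair rested on few libraries. FANCI lost its call without etoposide replicate 3 (adjusted p = 0.0609), and FANCD2 not without that library (0.115), etoposide replicate 2 (0.0585) or etoposide + rapamycin replicates 2 (0.0901) or 3 (0.0896), nor with all rows of at least 1 count kept (0.0673). BRIP1, the BRCA1-bound helicase also named FANCJ, rose in A375 (log2FC 0.46, adjusted p = 0.0248). Its call was lost without etoposide replicates 2 (0.0875) or 3 (0.0688) without etoposide + rapamycin replicates 1 (0.0621) or 2 (0.108), and with all rows of at least 1 count kept (0.0657). FANCF, FANCM and FANCL, the subunit that carries the ligase activity, did not pass in either line, with log2FCs between -0.21 and 0.13.

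**Figure D2:**
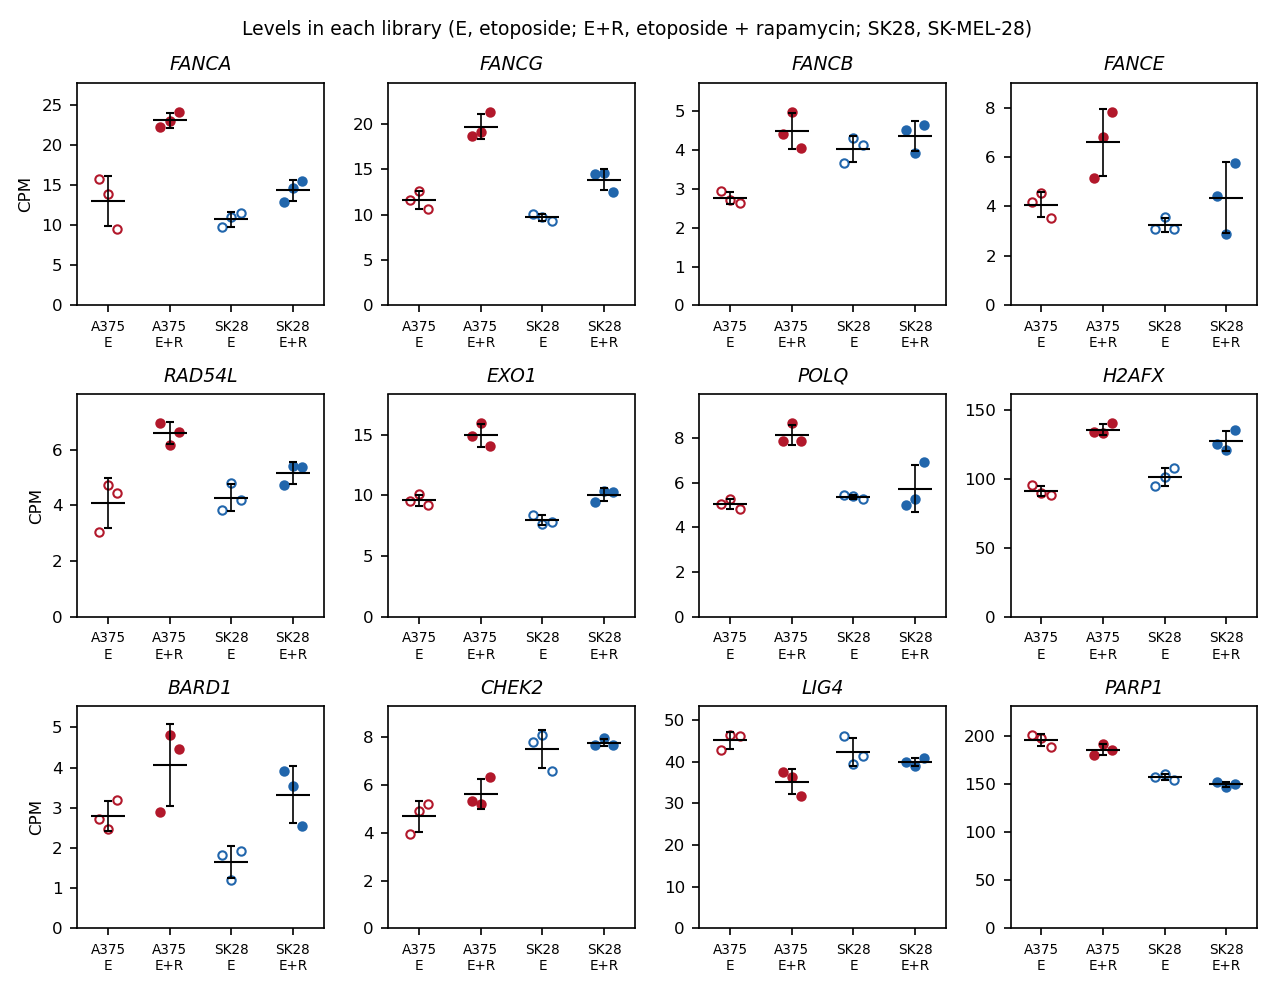
CPM in each library (points), with the mean and SD of 3 libraries (black), for 12 repair genes in the 4 groups (open points, etoposide; filled points, etoposide + rapamycin; red, A375; blue, SK-MEL-28). Each vertical axis starts at 0. For FANCA, FANCG, FANCB, FANCE, RAD54L, EXO1, POLQ and H2AFX, the 3 A375 libraries with rapamycin lie above the 3 with etoposide.

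Of the strand exchange genes, whose products take part in pairing the broken end with the sister chromatid, RAD54L changed most in A375. RAD54L, a motor protein of strand invasion (chromosome 1, 46246461 to 46278480, forward strand), was at 3.05, 4.74 and 4.43 CPM with etoposide and 6.93, 6.16 and 6.64 CPM with rapamycin. Its log2FC was 0.70 in A375 (SE 0.17, adjusted p = 0.00949) and 0.27 in SK-MEL-28 (SE 0.15, adjusted p = 0.249), where the libraries overlapped. RAD51D and XRCC3, subunits of complexes that act in homologous recombination, rose in both lines. RAD51D was at 14.8, 13.2 and 13.9 CPM with etoposide and 18.1, 18.5 and 18.3 CPM with rapamycin in A375 (log2FC 0.39, SE 0.088, adjusted p = 0.00517). The SK-MEL-28 values were 13.5, 15.3 and 13.7 CPM against 16.5, 20.3 and 21.8 CPM (log2FC 0.46, SE 0.11, adjusted p = 0.0119), a call lost without etoposide replicate 3 (0.0541) or etoposide + rapamycin replicate 3 (0.0616). RAD51D shares its assembled locus with RFFL, so its count is uncertain, and RFFL itself had log2FCs of -0.09 and 0.03 (adjusted p = 0.532 and 0.845).

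XRCC3 was at 9.87, 10.4 and 11.1 CPM with etoposide in SK-MEL-28 and at 14.0, 14.0 and 13.9 CPM with rapamycin (log2FC 0.42, SE 0.097, adjusted p = 0.00932). In A375 its log2FC was 0.40 (adjusted p = 0.0272), lost without etoposide replicate 1 (0.0839), etoposide replicate 3 (0.0519) or the rapamycin libraries of replicates 1 (0.0844) or 3 (0.101), and with all rows of at least 1 count kept (0.0859). XRCC2, a further paralogue, rose in A375 with a log2FC of 0.44 (adjusted p = 0.0290). That call was lost without etoposide replicates 1 (0.0750) or 3 (0.0721) and without etoposide + rapamycin replicates 1 (0.102) or 2 (0.102), and it was not made by DESeq2 (0.0549) or with all rows of at least 1 count kept (0.0736). BRCA2, a core protein of homologous recombination, had log2FCs of 0.36 and 0.28 that did not pass (adjusted p = 0.0912 in A375 cells and 0.229 in SK-MEL-28). Its partner PALB2 had -0.20 and -0.07 (adjusted p = 0.149 and 0.696). RAD51C, RAD52 and RAD54B also did not pass in either line.

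Among BRCA1 and the resection genes, the largest changes were those of EXO1 in A375 and of BARD1 in SK-MEL-28. EXO1, the exonuclease of long-range resection (chromosome 1, 241847967 to 241895148, forward strand), was at 9.54, 10.1 and 9.20 CPM with etoposide and 14.9, 15.9 and 14.0 CPM with rapamycin in A375 (log2FC 0.64, SE 0.10, adjusted p = 0.000524). In SK-MEL-28 its libraries did not overlap either, at 8.40, 7.64 and 7.84 CPM against 9.46, 10.4 and 10.3 CPM, but its log2FC of 0.33 missed the threshold (SE 0.11, adjusted p = 0.0501). BARD1, the ring finger partner of BRCA1 (chromosome 2, 214725646 to 214809683, reverse strand), had the largest log2FC of the 47 genes in SK-MEL-28, 1.01 (SE 0.24, adjusted p = 0.0115). It was also the least abundant repair gene there, at 1.83, 1.19 and 1.91 CPM with etoposide, with as few as 36 counts in a library, and 3.91, 3.54 and 2.54 CPM with rapamycin. In A375 the BARD1 libraries overlapped, at 2.72, 2.47 and 3.20 CPM against 2.91, 4.81 and 4.46 CPM (log2FC 0.54, SE 0.21, adjusted p = 0.0792).

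BRCA1 rose in A375, from 15.5, 17.3 and 14.0 CPM to 21.1, 21.1 and 19.6 CPM (log2FC 0.41, SE 0.097, adjusted p = 0.00807). Its log2FC in SK-MEL-28 was 0.10 (adjusted p = 0.596). BRCA1 shares its assembled locus with AC060780.1, which had more counts on average (659.5 a library) and log2FCs of 0.12 and 0.22 that did not pass. BLM, the helicase mutated in Bloom syndrome, rose in A375 with a log2FC of 0.51 (adjusted p = 0.0444). The call was lost without etoposide replicates 2 (0.132) or 3 (0.104), without etoposide + rapamycin replicates 1 (0.186) or 2 (0.0834), by DESeq2 (0.0713), with library totals as the scale (0.0634) and with all rows of at least 1 count kept (0.116). RBBP8, RAD50, NBN and WRN, the first 3 of which start resection, did not pass in either line, with log2FCs between -0.06 and 0.23.

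H2AFX, the gene of histone H2AX (chromosome 11, 119093874 to 119095465, reverse strand), had the smallest adjusted p of all 47 genes in both lines. In A375 it was at 95.3, 89.7 and 88.1 CPM with etoposide and 134, 133 and 140.1 CPM with rapamycin, far apart beside the spread within each group (log2FC 0.58, SE 0.049, adjusted p = 4.71e-06). That change lay just under a fold change of 1.5, which also rounds to 0.58 on the log2 scale. In SK-MEL-28 it went from 94.5, 101 and 108 CPM to 125, 121 and 135 CPM (log2FC 0.33, SE 0.062, adjusted p = 0.00278). MDC1, which reads phosphorylated H2AX, rose in A375 from 16.8, 17.6 and 19.2 CPM to 25.6, 24.0 and 24.2 CPM (log2FC 0.47, adjusted p = 0.00149) and had 0.10 in SK-MEL-28 (adjusted p = 0.537). The ubiquitin ligase genes RNF8 and RNF168 and TP53BP1, whose protein shields ends from resection, did not pass in either line, with log2FCs between -0.11 and 0.03.

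No damage signalling gene passed in either line. CHEK2 had the largest log2FC of the role in A375, 0.27 (SE 0.16, adjusted p = 0.236). Its A375 libraries did not overlap, at 3.97, 4.91 and 5.20 CPM against 5.32, 5.22 and 6.34 CPM. In SK-MEL-28 it had 0.05 (adjusted p = 0.822). The SEs of ATRIP were wide, 0.27 in A375 and 0.21 in SK-MEL-28. ATM was at 133, 116 and 119 CPM with etoposide in A375 and at 115, 115 and 109 CPM with rapamycin (log2FC -0.12, SE 0.055, adjusted p = 0.145), the smallest adjusted p of its role there. In SK-MEL-28 the smallest was that of CHEK1, the kinase downstream of ATR, at 27.5, 25.7 and 27.4 CPM against 22.2, 24.3 and 25.0 CPM. These libraries did not overlap, but the log2FC of -0.17 did not pass (SE 0.079, adjusted p = 0.152). CHEK1 shares its assembled locus with STT3A, so its count is uncertain, as is that of ATRIP, whose locus also holds TREX1.

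Of the end joining genes, LIG4, the ligase that seals the break (chromosome 13, 108207439 to 108218368, reverse strand), was the 1 repair gene that fell. In A375 it went from 42.8, 46.4 and 46.2 CPM with etoposide to 37.5, 36.2 and 31.8 CPM with rapamycin (log2FC -0.35, SE 0.072, adjusted p = 0.00301). In SK-MEL-28 its libraries overlapped (log2FC -0.09, SE 0.068, adjusted p = 0.429). PRKDC, the gene of the DNA-PK catalytic subunit, was at 399.9, 319 and 343 CPM with etoposide in A375 and at 407, 418 and 412 CPM with rapamycin (log2FC 0.23, SE 0.068, adjusted p = 0.0266). The call was lost without etoposide replicates 2 (0.101) or 3 (0.0882), without any 1 of the 3 rapamycin libraries (0.0629 to 0.0820), with library totals as the scale (0.0734), and with all rows of at least 1 count kept (0.0888). PRKDC starts 805 bases from MCM4, a replication gene on the opposite strand, which rose in both lines (log2FC 0.46, adjusted p = 6.33e-05 in A375, and 0.24, adjusted p = 0.00667 in SK-MEL-28). NHEJ1, which stabilises the ends, had log2FCs of 0.38 (adjusted p = 0.0593) and 0.23 (adjusted p = 0.169), the latter the smallest adjusted p of the role in SK-MEL-28. Its libraries there did not overlap, at 8.53, 8.67 and 9.78 CPM against 11.2, 10.5 and 10.0 CPM. The Ku genes XRCC5 and XRCC6, with XRCC4 and the nuclease gene DCLRE1C, did not pass in either line.

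POLQ encodes the polymerase of theta-mediated end joining, a backup route that anneals short homologies (chromosome 3, 121431431 to 121545988, reverse strand). It was at 5.05, 5.26 and 4.81 CPM with etoposide in A375 and at 7.88, 8.65 and 7.85 CPM with rapamycin, a log2FC of 0.69 (SE 0.12, adjusted p = 0.00130). In SK-MEL-28, where 1 rapamycin library stood above the other 2, the libraries were at 5.43, 5.42 and 5.26 CPM against 5.00, 5.25 and 6.92 CPM (log2FC 0.09, SE 0.15, adjusted p = 0.740). PARP1, the break sensor that marks proteins with ADP-ribose, had a log2FC of -0.07 in both lines (adjusted p = 0.292 for A375 and 0.337 for SK-MEL-28), and in SK-MEL-28 it went from 158, 161 and 154 CPM to 152, 147 and 151 CPM.

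Some repair genes rose in both lines. How many of all genes did so was not counted, so the overlap is not a trait shown for the repair genes. Of the 19 genes higher in A375, 7 were also higher in SK-MEL-28 (H2AFX, RAD51D, XRCC3, FANCA, FANCD2, FANCG and FANCI), and of the 8 higher in SK-MEL-28 only BARD1 was not called in A375. Among the 12 others called in A375, 11 had a positive log2FC in SK-MEL-28, PRKDC being the exception. The difference of the response between the lines was itself tested in 1 fit of all 12 libraries, where 5.62% of 20101 genes passed. None of the 47 passed by edgeR, while 9 had an unadjusted p under 0.05 (20.4% of all genes did) and DESeq2 called 1, H2AFX (adjusted p = 0.0235). The smallest adjusted p values by edgeR were those of POLQ (SK-MEL-28 minus A375 -0.60, SE 0.19, adjusted p = 0.0753), H2AFX (-0.25, SE 0.080, adjusted p = 0.0851) and MDC1 (-0.36, SE 0.13, adjusted p = 0.118). POLQ passed without SK-MEL-28 etoposide + rapamycin replicate 3 (adjusted p = 0.0240), and H2AFX without A375 etoposide replicate 1 (0.0494) or SK-MEL-28 etoposide replicate 1 (0.0369). A different response of a repair gene in the 2 lines was therefore not established, and SEs of the difference, 0.15 at the median, leave room for one.

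Many S phase genes also rose in both lines, and many mitosis genes did so in A375 but not in SK-MEL-28. Of 27 S phase genes, 23 rose in A375 and 14 in SK-MEL-28, and their summed level went from 839 to 889 CPM with etoposide to 1157 to 1214 CPM with rapamycin in A375 and from 847 to 865 CPM to 1009 to 1105 CPM in SK-MEL-28. Of 23 mitosis genes, 16 rose in A375, with sums of 347 to 362 CPM against 503 to 533 CPM. In SK-MEL-28 1 mitosis gene rose and 4 fell, with overlapping sums of 424 to 458 CPM and 405 to 448 CPM. The difference between the lines passed for 10 of the 23 mitosis genes, all with the lower log2FC in SK-MEL-28, and for 1 of the 27 S phase genes. In bulk RNA a larger share of cells in a cycle phase and more RNA per cell cannot be told apart, and the part of the cell cycle in the repair gene changes was not tested.

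**Figure D3:**
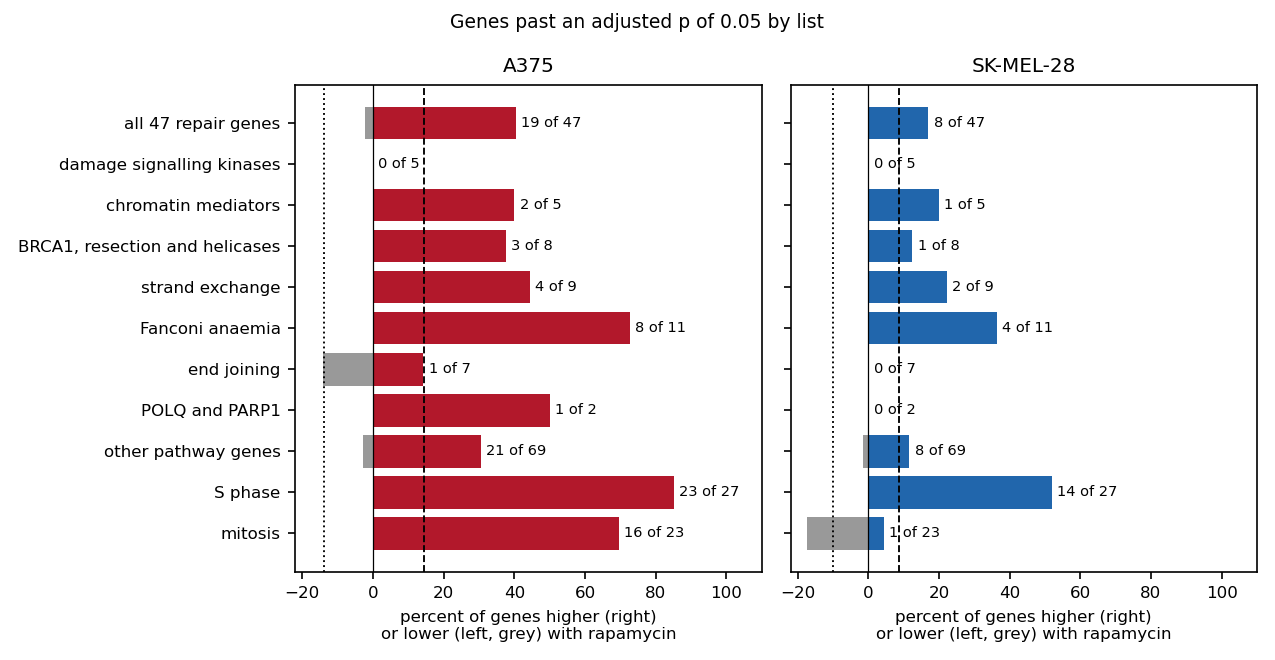
Percent of the genes of each list that passed an adjusted p of 0.05 with rapamycin, higher to the right (coloured) and lower to the left (grey), in A375 and SK-MEL-28, with the number of higher genes printed. Dashed and dotted lines give the percent of all genes tested that were higher (14.3% and 8.83%) and lower (13.8% and 10.1%). The bars of S phase genes (23 of 27 and 14 of 27) are the longest in either line, and mitosis genes have a long bar in A375 alone.

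Promoter sequence was set beside these changes, because E2F factors drive S phase transcription. The windows from 250 bases before to 50 after each RefSeq start (GRCh38.p14) were searched on both strands for the E2F sites TTTCCCGC, TTTCGCGC, TTTGCCGC and TTTGGCGC. Of the 47 genes, 41 had a window, and 6 of them (14.6%) held a match, where 3.99% of all 27305 genes with a window did. The stretches with a match are shown 5′ to 3′ on the strand of the gene, with the match in capitals on either strand.
FANCA, chr16:89816768-89816837, reverse strand: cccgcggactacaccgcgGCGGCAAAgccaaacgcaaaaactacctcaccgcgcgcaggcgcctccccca
FANCC, chr9:95317740-95317889, reverse strand: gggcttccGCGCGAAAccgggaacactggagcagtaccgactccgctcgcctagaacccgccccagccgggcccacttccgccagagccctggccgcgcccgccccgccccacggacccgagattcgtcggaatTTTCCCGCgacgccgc
FANCD2, chr3:10026377-10026446, forward strand: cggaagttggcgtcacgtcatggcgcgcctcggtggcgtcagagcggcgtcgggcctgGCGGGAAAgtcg
EXO1, chr1:241848154-241848217, forward strand: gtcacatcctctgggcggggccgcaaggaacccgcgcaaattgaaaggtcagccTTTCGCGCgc
XRCC2, chr7:152676112-152676171, reverse strand: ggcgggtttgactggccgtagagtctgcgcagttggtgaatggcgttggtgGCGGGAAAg
XRCC6, chr22:41621315-41621344, forward strand: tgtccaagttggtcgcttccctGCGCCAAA
The match of FANCD2 began 2 bases before the start and ran past it, and FANCC held 2 matches, which began 172 and 46 bases before it. The matches of EXO1, XRCC2 and XRCC6 lay after the start of their windows' transcripts. All of these genes but XRCC6, the Ku subunit gene at the end of the list, rose in A375, that is 5 of 6, while 12 of the 35 genes with a window and no match rose. Of all genes tested in A375 with a window, 22.6% of the 733 with an E2F match rose and 16.2% of the 11063 without. In SK-MEL-28, 2 of the 6 rose (FANCA and FANCD2) and 5 of the 35. Of all genes tested there with a window, 13.0% of those with an E2F match rose and 9.71% of those without. FANCG, FANCB, FANCE, RAD54L and POLQ passed both thresholds in A375 with no such match in these windows.

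The cell cycle homology region, TTTGAA or TTCGAA on either strand, was in the windows of 6 of the 41 genes (14.6%, and 19.5% of all genes with a window). They were ATM, MDC1, H2AFX, FANCC, BRIP1 and POLQ, of which all but ATM rose in A375 and H2AFX alone rose in SK-MEL-28. The counts in A375, 5 of 6 with a match and 12 of 35 without, were the same as for E2F. Over all genes tested in A375, 15.0% of those with this motif rose and 16.9% of those without. In SK-MEL-28, 6 of the 35 repair genes without a match rose, and over all genes tested 10.4% with the motif and 9.83% without. CCAAT was in those of 21 of the 41 (51.2%, and 39.7% of all), of which 8 rose in A375 and 3 in SK-MEL-28, beside 9 and 4 of the 20 without it. No E2F match overlapped a match of the other motifs. RAD54B, NBN, WRN, FANCI, XRCC5 and PRKDC had no window.

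Under etoposide alone, 12 of the 47 genes differed between SK-MEL-28 and A375, 8 higher and 4 lower in SK-MEL-28, where 15.1% of 20101 genes tested were higher and 16.7% lower. CHEK2 and BARD1 passed a fold change of 1.5 as well, against 12.5% of all genes in either direction. The 4 highest by fold were CHEK2, FANCB, RNF168 and ATR. CHEK2, the kinase downstream of ATM (chromosome 22, 28687743 to 28742422, reverse strand), was at 3.97, 4.91 and 5.20 CPM in A375 and 7.81, 8.10 and 6.59 CPM in SK-MEL-28 (log2 difference 0.68, SE 0.14, adjusted p = 0.000910). FANCB had a log2 difference of 0.54 (SE 0.15, adjusted p = 0.0106), the A375 etoposide libraries being the lowest of the 4 groups. RNF168, at 14.3, 13.5 and 14.4 CPM against 20.2, 18.8 and 17.8 CPM, had 0.43 (SE 0.084, adjusted p = 0.000739). ATR, at 58.7, 52.7 and 53.9 CPM against 71.6, 68.2 and 63.4 CPM, had 0.30 (SE 0.059, adjusted p = 0.000819).

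The 4 genes lower in SK-MEL-28 were BARD1, PARP1, EXO1 and FANCI. PARP1 (chromosome 1, 226360210 to 226408154, reverse strand) was the surest of them, at 202, 198 and 189 CPM in A375 and 158, 161 and 154 CPM in SK-MEL-28 (log2 difference -0.32, SE 0.042, adjusted p = 1.70e-05). BARD1 had -0.76 (SE 0.25, adjusted p = 0.0257), lost without A375 etoposide replicate 3 (0.0964) or SK-MEL-28 etoposide replicate 2 (0.118). FANCI, with -0.22 (adjusted p = 0.0273), was lost without any 1 of the 3 A375 etoposide libraries (0.0624 to 0.0740) or SK-MEL-28 etoposide replicates 2 (0.0548) or 3 (0.137). EXO1, with -0.27 (adjusted p = 0.0408), was lost without any 1 of the 3 A375 etoposide libraries (0.0540 to 0.136), A375 etoposide + rapamycin replicate 1 (0.0517), or SK-MEL-28 etoposide replicates 2 (0.126) or 3 (0.102), and was not called by DESeq2 (0.0977), with the etoposide libraries alone (0.0835), with either other filter (0.0530 and 0.0984) or with the replicate block (0.0537). All 3 DNA-PK genes were higher in SK-MEL-28 by small amounts. The log2 difference was 0.29 for PRKDC (adjusted p = 0.00348), 0.18 for XRCC5 (adjusted p = 0.0192, and 0.114 without SK-MEL-28 etoposide replicate 1) and 0.16 for XRCC6 (adjusted p = 0.00787). CHEK1 had 0.24 (adjusted p = 0.0367), lost without A375 etoposide replicates 1 (0.145) or 2 (0.0689) or SK-MEL-28 etoposide replicates 1 (0.0957) or 3 (0.102).

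Levels between genes were compared per kb of the canonical GENCODE transcript. Under etoposide, XRCC6 was the highest of the 47 at 105 CPM per kb in A375 cells and 118 in SK-MEL-28, followed in both lines by XRCC5 (68.3 and 77.4 CPM per kb), H2AFX (57.2 and 63.6), PARP1 (49.4 and 39.6) and PRKDC (26.3 and 32.3). The order of these 5 genes was the same in the 2 lines, and the libraries of neighbours in it did not overlap. At the low end stood BARD1 at 0.511 CPM per kb in A375 cells and 0.300 in SK-MEL-28, BRCA2 at 0.527 and 0.465, and POLQ at 0.575 and 0.613. BARD1 and BRCA2 in A375 differed by less than the spread between their libraries. Highest and lowest differed 207-fold in A375 cells and 392-fold in SK-MEL-28, with a median of 2.63 and 3.28 CPM per kb. The DNA-PK genes thus stood above every strand exchange and Fanconi anaemia gene, the highest of which was FANCL at 11.5 and 12.2 CPM per kb.

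**Figure D4:**
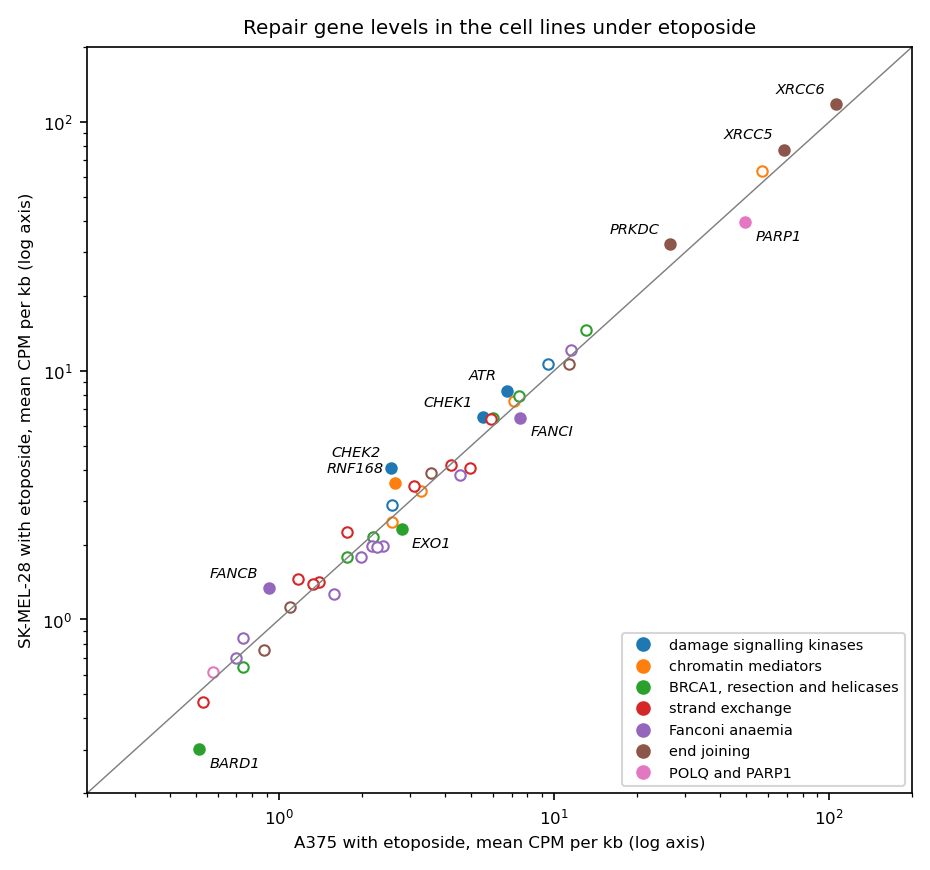
Mean level of each of the 47 repair genes under etoposide in A375 (x axis) and SK-MEL-28 (y axis), in CPM per kb on log axes, coloured by role, with the line of equal levels. Filled and named points are the 12 genes that differed between the lines at an adjusted p under 0.05. XRCC6 stands at 105 and 118 CPM per kb at the top and BARD1 at 0.511 and 0.300 at the bottom.

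Another 69 genes of break and crosslink repair, replication-linked repair and their regulators, all tested, were set beside the 47. In A375, 21 of the 69 rose and 2 fell, with a median log2FC of 0.10, where 14.3% of all genes rose and 13.8% fell. In SK-MEL-28, 8 of the 69 rose, a share near the 8.83% of all genes that did, and 1 fell, where 10.1% of all genes did, with the same median of 0.10. RMI2, a partner of BLM, went from 5.44, 3.40 and 4.67 CPM to 7.77, 7.13 and 10.2 CPM in A375 (log2FC 0.90, SE 0.19, adjusted p = 0.00345). EME1, a subunit of a nuclease that cuts joint molecules, went from 4.56, 2.30 and 4.46 CPM to 6.37, 6.39 and 6.21 CPM (log2FC 0.75, SE 0.22, adjusted p = 0.0214). CLSPN, the adaptor through which ATR activates CHEK1, went from 12.3, 11.9 and 10.6 CPM to 17.8, 18.2 and 18.9 CPM (log2FC 0.66, SE 0.095, adjusted p = 0.000287). None of these 3 genes passed in SK-MEL-28, where their log2FCs were 0.36, 0.06 and 0.29. The difference between the lines, which 5.62% of all genes passed, did so for 1 of the 69, HELB, a helicase that limits resection (0.50, SE 0.13, adjusted p = 0.0333), which had log2FCs of -0.23 in A375 cells and 0.26 in SK-MEL-28, neither past its own test.

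Of the 47 genes, 10 share an assembled locus with another gene name, which leaves the division of their counts uncertain. Besides ATRIP, CHEK1, BRCA1 and RAD51D they were RNF8, RAD52, RAD54B, RBBP8, RAD50 and NHEJ1. In 13 of the 47, another gene of the table starts within 1000 bases on the opposite strand. All of these neighbours but ZAR1L and CRTC3-AS1 were tested in A375, and all but these and PURG in SK-MEL-28. Of those tested, 3 passed in A375 (MOSPD2 beside FANCB, TMEM167A beside XRCC4 and MCM4 beside PRKDC), where 14.3% of all genes rose and 13.8% fell. In SK-MEL-28 3 passed (TMEM167A, MCM4 and DESI1 beside XRCC6), where 8.83% of all genes rose and 10.1% fell. No test set these counts against those shares. In A375, TMEM167A fell while XRCC4 had a log2FC of 0.08, and MCM4 was the 1 of these 3 neighbours with the sign of its repair gene. In SK-MEL-28, TMEM167A and DESI1 fell while XRCC4 and XRCC6 had log2FCs of -0.07 and -0.04, and MCM4 rose while PRKDC had -0.04. Whether the deposited counts use strand is not given in the sources used here.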

How the data were processed

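PolyA RNA of A375 and SK-MEL-28 cells was sequenced on an Illumina instrument, 3 libraries in each of 4 groups, which the study describes as biological replicates. Per the submitters' processing notes and the study's methods, reads were aligned to hg38 with HISAT2 and expression was estimated with StringTie. The authors deposited raw counts, whole numbers per gene and library, with no normalization and no pooling. How StringTie coverage became counts is not given in the sources used here. Of 58312 rows, 5 name no gene (at most 0.00529% of a library's counts) and were left out of library sizes and tests.

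Each line was fitted alone in edgeR 4.0.16 under R 4.3.3 (filterByExpr with a minimum count of 10, TMM, glmQLFit and glmQLFTest), and the difference of the response and the comparison of the lines were fitted on all 12 libraries. Calls were made at an adjusted p under 0.05, alone or with a fold change over 1.5. Standard errors were taken as the size of the log2FC over the root of the F statistic. The biological coefficient of variation was 0.0957 in either line, and this spread between replicates sets the precision. Scripts were tested on simulated counts. Positions and transcript lengths came from GENCODE (GRCh38) and promoters from RefSeq, with H2AFX matched through its current symbol H2AX.

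The members, roles and lists were chosen with earlier results of these data known. Values in each library are given, at least for the line or lines that met the rule, for members past both thresholds in either line. They are given likewise for the member with the smallest adjusted p in each role and line. The same holds for the 4 genes highest and 4 lowest in SK-MEL-28 among those past an adjusted p of 0.05. Also named were the members nearest to passing the difference of the response, those that a left-out library changed, and up to 6 other pathway genes past both thresholds. The values of 1 of the other pathway genes are not reported here, and totals include it. Alternatives were DESeq2 1.42.0, RLE size factors, library totals, 2 other filters, 1 fit of all libraries, the etoposide libraries alone, rows of the same symbol summed, the replicate number as a block, and each library left out.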

Additional observations from a re-analysis of the deposited data

How the results depend on the processing

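With 1 library left out in turn, the number of repair genes past the test was 16 to 18 in A375 (15 to 17 higher, 1 to 1 lower, 7 to 9 past a fold of 1.5) and 5 to 8 in SK-MEL-28 (5 to 8 higher, 0 to 0 lower, 1 to 2 past the fold), with 5 without etoposide replicate 3 or etoposide + rapamycin replicate 3. For the difference of the response it was 0 to 2 (0 to 1 higher, 0 to 2 lower, 0 to 1 past the fold), and for SK-MEL-28 against A375 9 to 13 (7 to 9 higher, 1 to 4 lower, 1 to 3 past the fold), with 1 lower without SK-MEL-28 etoposide replicate 2. Of the genes that rose, 13 of 19 in A375 and 4 of 8 in SK-MEL-28 stayed past the test with each library left out. The number that passed for the difference of the response was 1, and 1 lower, by DESeq2 and also with rows of at least 10 counts in every library. With all rows of at least 1 count kept, 14 genes rose in A375, XRCC2, XRCC3, BLM, BRIP1 and PRKDC being lost, and FANCD2 was lost in SK-MEL-28. Between the lines, that filter left 1 gene lower in SK-MEL-28 and 1 past the fold of 1.5, with CHEK1 (adjusted p = 0.0593), BARD1 (0.0583), EXO1 and FANCI (0.0750) lost. The cause was not tested. No alternative turned the direction of a gene called in the main fit, or of POLQ, H2AFX and MDC1 for the difference of the response. The direction of the other genes was not followed across the alternatives. Scaling by library totals moved the median of all genes by less than 0.1. Correlations of same-numbered libraries' deviations, taken over all genes kept, were -0.030 to 0.021. The labels give only a number, and whether same-numbered libraries were handled together is not known. The replicate block gave 20 genes in A375, 8 in SK-MEL-28, 0 for the difference and 13 between the lines. With 3 libraries a group, changes of genes under about 10 CPM were measured with wide errors, and which genes near an adjusted p of 0.05 are called depends on single libraries.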
